A study of Danio rerio with 72 samples.

Results

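The caudal vein (CV) was set against the caudal artery (CA) in laser-captured pieces of zebrafish tail sections, taken from embryos 52 hours after fertilization (hpf). The members of the comparison are the CV and CA libraries of both deposited series, 24 of 72 libraries, taken by the region named for each library. Series M gave 6 CV and 6 CA libraries from the sections labelled layer 2, 6, 8, 12, 15 and 17, and series Z gave 6 of each from layers 1, 6, 10, 19, 22 and 25. CV and CA captures of a section carry the same layer number and were compared as pairs.

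The labels name no treatment, mutation or strain. Their tails were frozen upright, sectioned and stained with cresyl violet, and each region was cut out by laser capture, lysed and amplified by PCR before sequencing of polyadenylated RNA. The remaining captures, used here only to show where a gene is high, were the caudal vein plexus (CVP), neural tissue (N), and the left and right muscle. What the letters M and Z mean and how many embryos were sectioned is not stated, so p-values measure the spread between sections and come out too small where 1 embryo gave several sections.

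The caudal artery and caudal vein are the main vessels of the tail. The artery lies under the notochord, between the muscle blocks, and the vein lies further down, towards the skin and the fin fold. Arterial endothelium depends on Notch ligands of the Delta family and on the ephrin gene efnb2a, whereas venous endothelium of the zebrafish tail carries scavenger receptors such as stab2 and mrc1a. The vein and its plexus house the blood stem cell niche of the embryo, to which stromal and endothelial cells contribute chemokines of the Cxcl12 family and Ccl25b. A laser capture takes every cell within its outline, so a vessel capture can hold skin, muscle or notochord beside endothelium and blood.

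The CV and CA libraries of series M held 75007 to 487552 and 92436 to 245672 reads over protein-coding genes, and those of series Z held 260908 to 4009980 and 177428 to 3564954. The number of genes above 0 differed between CV and CA by -107 ± 905 in series M (exact permutation p = 0.812) and by 2079 ± 2038 in series Z (p = 0.0938, with 5 of 6 sections higher in CV). Both are means of the section differences ± SD (n = 6), tested two-sided with 0.0312 as the smallest p possible. The CV capture of layer 12 in series M had the most reads of the CV libraries of that series, 487552, but the fewest genes above 0, 4516. In its skin genes 1 CA library stood apart. The CA capture of layer 17 in series M had 12.4% of its reads in the epidermis list (95% Wilson interval 12.3 to 12.5%, counting error only), whereas the other 5 CA captures of that series had at most 0.269%. It held 26166 FPKM of the surface keratin gene krt4 together with 312 FPKM of the notochord collagen gene col2a1a and 2.08 FPKM of the VEGF receptor gene kdrl. The CVP capture of layer 17 had 9.23% of its reads in the epidermis list, against at most 0.843% in the other CVP captures of series M. Series M is given with all 6 sections and, as set for this comparison, without layer 17. That section was left out because of the skin in its CA capture. Stronger skin and fin fold differences without layer 17 follow from this choice and are no separate support.

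Values are FPKM (fragments or reads scaled by gene length and by the reads of the library), written as the lowest, median and highest of 6 libraries. Differences are CV minus CA on the scale of log2(FPKM + 1), with the standard error of limma, and understate the change of weakly expressed genes. The limma test was run within each series with section as a block, and a gene was called when its two-sided p, adjusted by the Benjamini-Hochberg method over all genes tested in that series, was under 0.05. "Rose" and "fell" describe called genes in CV relative to CA. Where a gene is listed at 0 in every library of a group, the size of its difference depends on the added 1. To be tested, a gene had to reach 1 FPKM in at least 6 of 12 libraries, or in at least 5 libraries in series M without layer 17. A gene at 0 throughout 1 group therefore passed this filter only through the other group, which fixed its direction and its non-overlap. The direction of such genes, also within list counts, is no separate result.

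In series M the pan-endothelial share of reads was lower in CV than in CA in every section but layer 17 (0.0971% in CV, 0.0733% in CA). In series Z the shares of the 2 groups overlapped. The pan-endothelial list took 0.00164, 0.0480 and 0.0971% of reads in CV captures and 0.0733, 0.251 and 0.584% in CA captures of series M (lowest, median and highest library). In series Z it took 0.234, 0.331 and 0.412% in CV and 0.222, 0.356 and 0.543% in CA. kdrl was at 0, 0.655 and 15.9 FPKM in CV and 2.08, 69.8 and 171 FPKM in CA of series M, and it was listed at 0 in 3 of the 6 CV libraries. In series Z kdrl was at 59.2, 69.7 and 156 FPKM in CV and 20.3, 60.5 and 171 FPKM in CA, with overlapping groups. The CV captures of series M thus had little RNA of defining endothelial genes, while those of series Z overlapped the CA captures. With all sections, the limma test of the difference between the series, given below, passed 0 of 5174 genes. In bulk captures fewer cells of a type and less RNA per cell cannot be told apart.

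In series M, 95 genes rose and 59 fell in CV among 6331 tested, which is 1.5% and 0.932% of the genes tested (2.43% in either direction). Without layer 17, 119 rose (2.02%) and 69 fell (1.17%) among 5890 (3.19% in either direction). In series Z, 273 rose (3.38%) and 64 fell (0.793%) among 8071 (4.18% in either direction). The median difference over all genes tested was -0.00 in series M, -0.09 without layer 17 and 0.50 in series Z. Quantile scaling moved the median of series Z to -0.10 and its calls to 224 higher and 112 lower, so part of the excess of higher genes in series Z moved with the scaling. With detected genes per library added as a covariate, 31 genes rose and 20 fell in series Z. Detected genes were themselves higher in CV in 5 of 6 sections of series Z. The covariate is thus partly tied to region there, and for calls lost with it the 2 cannot be told apart. Of the named genes, 52 were called in series M and 63 in series Z. With that covariate 5 and 36 of these calls were lost, as given with the genes below, and without the filter on low values 27 and 18 were lost. These counts changed when a section was left out. Series M gave 86, 92 and 90 calls without layer 6, 8 or 12, against 154 with all sections, and series Z gave 206 without layer 19, against 337. Leaving out a section also leaves fewer pairs and changes the filter, and the part of each in these changes was not tested.

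Of 5174 genes tested in both series, 74 rose in both (1.43%) and 29 fell in both (0.56%), and 0 were called in opposite directions. Without layer 6 of series M the 103 shared genes came to 68. Among these 5174 genes, 87 rose in series M and 208 in series Z, of which the shared genes were 85.1% and 35.6%, and 55 fell in series M and 51 in series Z, of which the shared genes were 52.7% and 56.9%. The genes with the largest mean difference among those that rose in both were icn2, and2, aep1, cyt1, krt4, cfl1l, and1, krtt1c19e, tmsb1 and lye. The corresponding genes that fell were myhz2, cxcl12b, col2a1a, tnni2a.4, tnnc2, cxcl12a, atp2a1, pvalb1, pvalb2 and nme2b.2. The first set is led by genes known from skin and fin fold and the second by genes of fast muscle, a notochord collagen and the Cxcl12 chemokines.

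**Figure D1:**
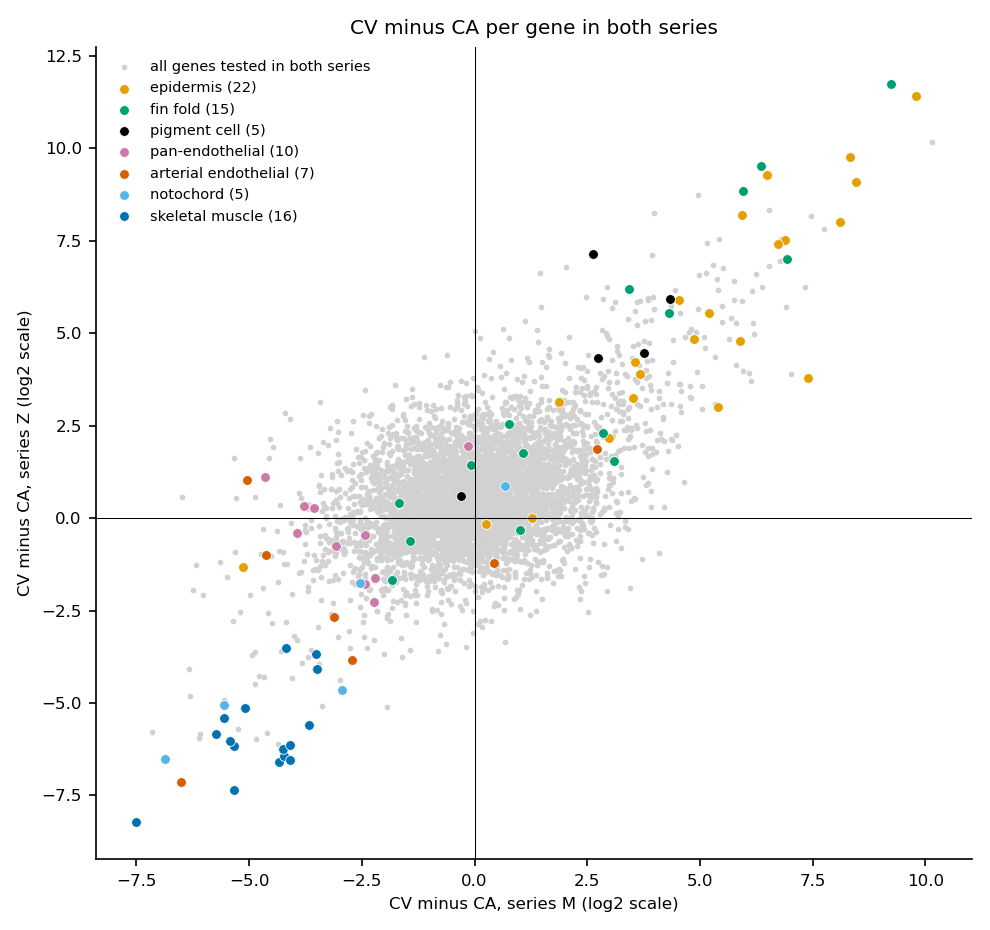
CV minus CA for each of 5174 genes tested in both series, on the log2(FPKM + 1) scale, with series M on the horizontal and series Z on the vertical axis and the number of list members in brackets. Epidermis, fin fold and pigment cell genes lie mostly at the upper right, skeletal muscle genes at the lower left, and pan-endothelial genes left of 0 for series M and on both sides of 0 for series Z.

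Skin genes were the main group that was higher in CV. Of 30 epidermis genes listed, 24 were tested in series M, where 15 rose and 1 fell, and 24 in series Z, where 18 rose and 0 fell (background 1.5% and 3.38% higher). Without layer 17, 18 of 23 rose and 1 fell (background 2.02% and 1.17%). Of the 30 listed genes, 1 was at 0 in every CA library of series M, 14 without layer 17 and 5 in series Z. Any of these that were tested passed the filter on low values through CV alone, which fixed their direction. The median difference of the tested members was 5.24, 6.88 and 4.82, against -0.00, -0.09 and 0.50 over all genes tested. The list took 3.92, 5.65 and 10.98% of reads in CV and 0.159, 0.214 and 12.4% in CA of series M, and 2.21, 5.25 and 5.92% and 0.107, 0.222 and 0.260% in series Z.

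krt4, a keratin of the outer skin layer, was at 8749, 15049 and 28693 FPKM in CV and 0, 25.8 and 26166 FPKM in CA of series M, and at 5136, 14126 and 16229.9 FPKM in CV and 2.28, 17.7 and 215 FPKM in CA of series Z. It rose by 8.46 ± 0.82 in series M (limma adjusted p = 6.03e-10) and by 9.10 ± 0.58 in series Z (adjusted p = 8.29e-08). The groups did not overlap in series Z, and in series M they overlapped through layer 17 alone, where the section difference was -1.08. Without that section krt4 rose by 10.37 ± 0.65. limma-voom on recovered reads did not call krt4 in series M, at 1.17 ± 0.43 (adjusted p = 0.141), nor cldni, tmsb1, and3, pfn1, cotl1 or cldn1. icn2, which encodes a small calcium-binding protein of fish epithelia, behaved alike, with 2209.5, 5297 and 14619 FPKM in CV and 0, 0 and 40201 FPKM in CA of series M. In series Z icn2 had 2125, 3227 and 5798 FPKM in CV and 0, 0 and 1.83 FPKM in CA, and its differences were 9.79 ± 1.13 (M) and 11.43 ± 0.67 (Z), both called. Both genes were thus high in every CV capture and far lower in the CA captures other than layer 17.

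Genes of the outer and the basal skin layer rose together. cyt1, a type I keratin, rose by 8.34 ± 1.13 and 9.78 ± 0.78 (series M, then series Z, here and in the sentences that follow). The basal keratin genes krt5 and krtt1c19e rose by 6.89 ± 0.88 and 7.51 ± 0.83, and by 6.48 ± 1.12 and 9.29 ± 0.85. Both were higher in CV in every section, and the groups did not overlap in either series. krt91 likewise rose by 6.72 ± 1.29 and 7.42 ± 0.84 without overlap. The claudin gene cldni, a component of tight junctions, rose by 5.94 ± 1.13 and 8.21 ± 0.81. tp63, the transcription factor of basal epidermis, was at 41.5, 114 and 252 FPKM in CV and 0, 14.3 and 81.7 FPKM in CA of series M, where the difference of 3.56 ± 1.22 did not pass (limma adjusted p = 0.137). In series Z tp63 had 11.7, 51.6 and 80.6 FPKM in CV and 0, 0.278 and 25.96 FPKM in CA and rose by 4.22 ± 0.96 (adjusted p = 0.0163). The groups overlapped in both series, and the call in series Z was lost without layer 1, 19 or 22 (adjusted p up to 0.0604) and with detected genes as a covariate (adjusted p = 0.835).

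Several leading genes outside the list are also known from skin. aep1, an aerolysin-like protein gene, rose by 10.15 ± 1.04 (M) and 10.17 ± 0.75 (Z), and its CV libraries lay above every CA library in both, with 3597, 4079.6 and 5451 FPKM in CV and 0, 0 and 2593 FPKM in CA of series M. lye, an epidermal gene of the Ly6 family, rose by 7.76 ± 1.14 and 7.82 ± 0.86 and was listed at 0 in all CA libraries of series Z. The epithelial adhesion gene epcam, a list member, and the claudin genes cldn1 and cldnb, all 3 picked after their values were seen, rose in both series. Their differences were 5.90 ± 1.28 and 4.78 ± 0.87 for epcam, 5.15 ± 1.36 and 7.43 ± 0.84 for cldn1, and 5.41 ± 1.28 and 6.16 ± 0.99 for cldnb. All 3 were listed at 0 in all 6 CA libraries of series Z. They passed the filter on low values there through CV alone, which fixed their direction. In series M the call of cldn1 was lost without layer 2, 6, 8 or 12 (adjusted p up to 0.163) and that of cldnb without layer 8 (adjusted p = 0.0801), and cldn1 did not reach the minimum level for testing without layer 17. The calls of epcam and cldnb in series Z were lost with detected genes as a covariate (adjusted p of 0.290 to 0.363).

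1 epidermis list member fell in series M. krt18, a keratin of simple epithelia, was at 0, 11.9 and 119 FPKM in CV and 145, 298 and 505 FPKM in CA of series M and fell with a difference of -5.14 ± 1.102 on the log2 scale (limma adjusted p = 0.00310). In series Z it was at 33.9, 139.9 and 237 FPKM in CV and 183, 270.2 and 541 FPKM in CA, a difference of -1.33 ± 0.58 (adjusted p = 0.246). CV lay below CA in 6 of 6 sections of each series. The test of the difference between the series gave -3.81 ± 1.28 (M minus Z, adjusted p = 0.681). Of 24 tested members, series M had 23 with a difference above 0 and series Z had 21, where krt18, krt94 and krt8 lay below 0. The keratin genes krt94 and krt8 gave -1.26 ± 0.76 (adjusted p = 0.431) and -0.17 ± 0.47 (adjusted p = 0.903) there.

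**Figure D2:**
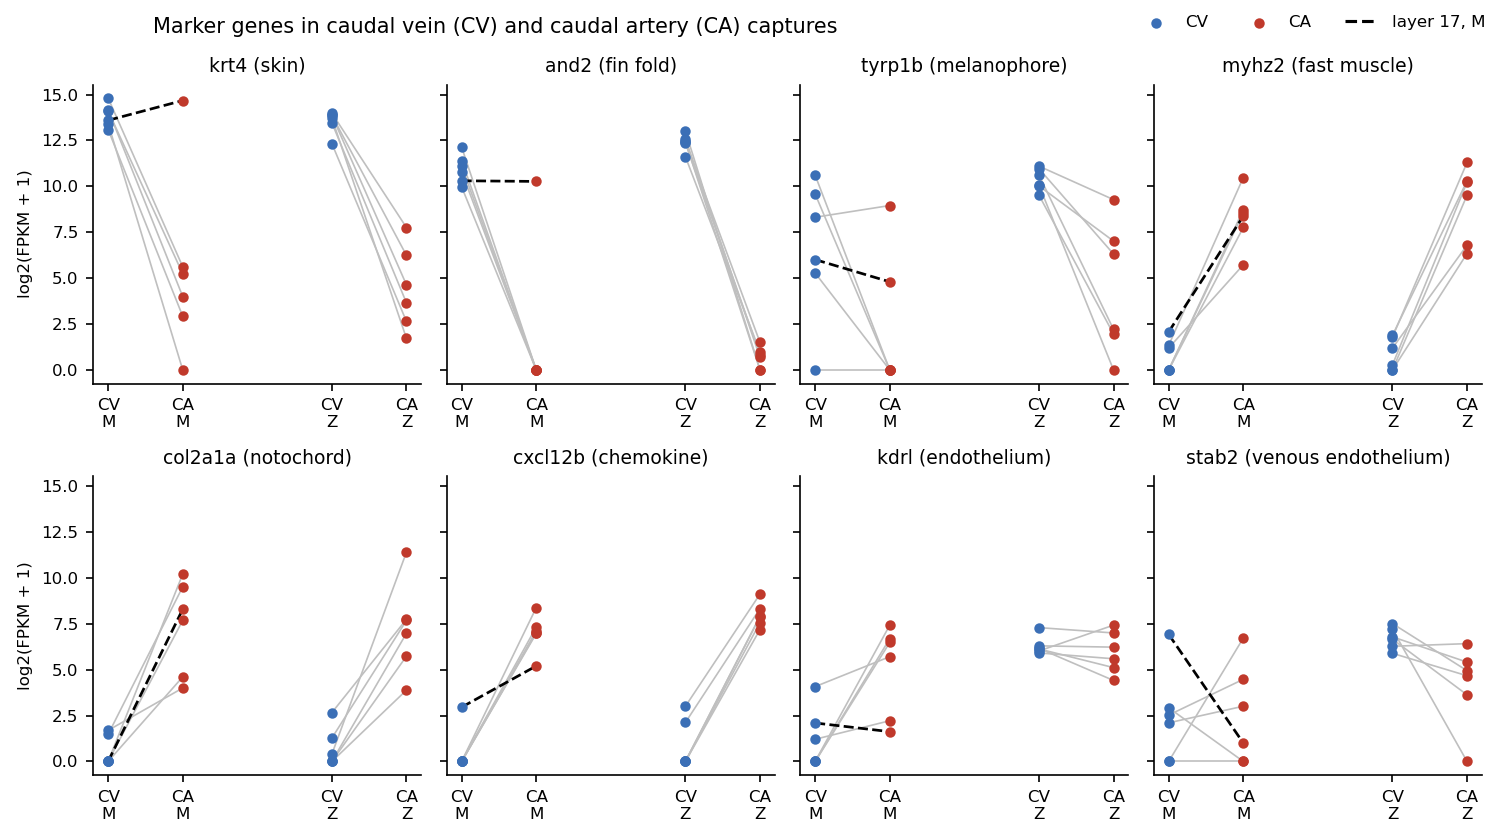
log2(FPKM + 1) of 8 marker genes in the CV (blue) and CA (red) libraries of series M (left pair) and series Z (right pair), 6 libraries a group, with a line joining the captures of a section. krt4, and2 and tyrp1b are high in CV, myhz2, col2a1a and cxcl12b are high in CA, and the dashed line of layer 17 in series M is level or rising for krt4 and and2.

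Part of the fin fold genes rose beside the skin genes. Of 24 fin fold genes listed, 22 were in the tables, 4 of 17 tested rose in series M, 4 of 15 without layer 17, and 6 of 15 in series Z (background 1.5%, 2.02% and 3.38% higher), and 0 fell in any of these fits. The median difference was 2.15, 2.56 and 2.30. Of the 22 genes in the tables, 2 were at 0 in every CA library of series M, 8 without layer 17 and 5 in series Z. Any of these that were tested passed the filter on low values through CV alone, which fixed their direction. The members called were the actinodins, which form the stiff fibres of the fin fold, and homeobox genes of its mesenchyme and edge. and2 was at 1001, 1976 and 4492 FPKM in CV and 0, 0 and 1233 FPKM in CA of series M, and at 3139, 5558 and 8245 FPKM in CV and 0, 0.695 and 1.83 FPKM in CA of series Z. It rose by 9.24 ± 1.098 in series M (limma adjusted p = 1.14e-07) and by 11.75 ± 0.61 in series Z (adjusted p = 1.16e-08). In series M and2 was listed at 0 in the 5 CA libraries other than layer 17, whose 1233 FPKM lay within the range of the CV libraries.

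The other actinodin genes showed the same split. and1 had 121, 235 and 951 FPKM in CV and 0, 0 and 2368 FPKM in CA of series M, and rose by 6.36 ± 1.31 there and by 9.52 ± 0.76 in series Z. and3 rose by 5.96 ± 1.39 and 8.86 ± 0.81 and was listed at 0 in all 6 CA libraries of series Z. In layer 17 of series M both were higher in CA, with section differences of -4.28 for and1 and -6.67 for and3. The call of and3 in series M was lost without layer 6, 8 or 12 (adjusted p up to 0.0795). The homeobox gene msx2b rose by 6.93 ± 1.23 and 7.02 ± 0.89, and msx3, picked after its values were seen, by 6.15 ± 1.24 and 6.14 ± 0.94. msx1b and dlx5a, also homeobox genes, rose in series Z by 6.19 ± 1.07 and 5.55 ± 0.90. msx1b and dlx5a did not overlap between CV and CA of series Z. In series M they gave 3.44 ± 1.19 (adjusted p = 0.142) and 4.30 ± 1.38 (adjusted p = 0.0995). In series Z msx2b, msx3, msx1b and dlx5a lost their calls with detected genes as a covariate (adjusted p of 0.0800 to 0.580). fras1, which encodes a basement membrane protein of the fin fold, had 0.548, 11.5 and 34.1 FPKM in CV and 0, 2.32 and 118 FPKM in CA of series M and a difference of 1.002 ± 1.34, with -0.32 ± 0.95 in series Z.

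Melanophore genes rose in series Z. Of 14 pigment cell genes listed, 5 of 10 tested rose in series Z (background 3.38% higher), and 0 of 5 rose in series M and 0 of 6 without layer 17 (background 1.5% and 2.02%, and 2 at an unadjusted limma p under 0.05 in each), with median differences of 4.14, 2.73 and 2.53. Over all genes tested, 435 of 6331 in series M and 423 of 5890 without layer 17 were higher at that unadjusted p. tyrp1b, an enzyme of melanin synthesis, was at 736, 1322 and 2198 FPKM in CV and 0, 41.1 and 619 FPKM in CA of series Z and rose by 5.92 ± 0.89 (limma adjusted p = 0.000795) without overlap. In series M tyrp1b was at 0, 191 and 1555 FPKM in CV and 0, 0 and 496 FPKM in CA, a difference of 4.34 ± 1.35 (adjusted p = 0.0799). It was listed at 0 in 1 CV and 4 CA libraries of series M, and the groups overlapped. In series Z dct, pmela, mitfa and oca2, for a melanin enzyme, a melanosome protein, the melanophore transcription factor and a melanosome transporter, rose by 7.13 ± 0.94, 4.47 ± 0.77, 4.61 ± 0.98 and 4.32 ± 0.96. The calls of mitfa and oca2 were lost without layer 10 (adjusted p = 0.0513) and layer 1 or 19 (adjusted p up to 0.0621). slc45a2, a further melanosome transporter gene picked after its values were seen, rose in both series, by 4.90 ± 1.37 and 5.04 ± 0.85, though not in series M without layer 2, 6, 12 or 17 (adjusted p up to 0.199). With detected genes as a covariate all 6 calls in series Z were lost (adjusted p of 0.108 to 0.972), and that of slc45a2 in series M (adjusted p = 0.0537). The difference between the series was -4.50 ± 1.90 for dct (M minus Z, adjusted p = 0.702) and -1.58 ± 1.80 for tyrp1b (adjusted p = 0.928).

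Genes for enzymes that break down phenylalanine and tyrosine were picked after their values were seen and are given for their values. hpdb, for the dioxygenase that makes homogentisate, was at 99.7, 387 and 1239.6 FPKM in CV and 0, 0 and 77.8 FPKM in CA of series M and rose by 6.92 ± 1.13, and it rose by 5.71 ± 0.86 in series Z, without overlap in either. The next enzymes of the path, homogentisate dioxygenase (hgd) and fumarylacetoacetate hydrolase (fah), rose by 6.18 ± 1.24 and 5.29 ± 0.94, and by 5.64 ± 1.28 and 4.84 ± 0.93. qdpra, which regenerates the pterin cofactor of phenylalanine hydroxylase, rose by 3.77 ± 1.08 and 5.33 ± 0.91. The hydroxylase gene pah itself rose in series Z by 5.39 ± 0.91, with 3.41 ± 1.296 in series M (limma adjusted p = 0.209, and 0.0296 without layer 17). The call of qdpra in series M was lost without layer 2, 6, 8 or 12 (adjusted p up to 0.262). The cofactor recycling gene pcbd1 gave 3.81 ± 1.17 in series M (adjusted p = 0.0761) and rose by 3.21 ± 0.71 in series Z, where the call was lost without layer 19 or 22 (adjusted p up to 0.0650). gstz1, which acts between hgd and fah, was tested in series Z only and gave 3.12 ± 1.07 (adjusted p = 0.130). With all sections tat and hpda did not reach the minimum level for testing in either series. tat was at 0, 0 and 22.7 FPKM in CV and 0, 4.51 and 69.5 FPKM in CA of series M, lower in CV in 4 sections and higher in 1. Without layer 17 it was tested and gave -2.30 ± 1.43 (adjusted p = 0.534). In series Z tat was listed at 0 in all CV libraries and reached 14.1 FPKM in CA. hpda was highest in CA of series M, at 54.4 FPKM, and in CV of series Z, at 0.809 FPKM. Epidermis genes rose in the same captures of both series and pigment cell genes in those of series Z, and their part in these differences was not tested. All 6 calls in series Z, those of hpdb, hgd, fah, qdpra, pah and pcbd1, were lost with detected genes as a covariate (adjusted p of 0.0940 to 0.751).

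tmsb4x, actb1, pfn1 and cotl1 were likewise picked after their values were seen. tmsb4x, a thymosin that binds actin monomers, was at 9467, 11436 and 19603 FPKM in CV and 1784, 3489.7 and 16152 FPKM in CA of series M, and at 10132, 15348 and 20076 FPKM in CV and 2429, 5212 and 10694 FPKM in CA of series Z. It rose by 1.67 ± 0.28 and 1.68 ± 0.19 (series M, then series Z). The actin gene actb1 rose by 1.44 ± 0.41 and 1.66 ± 0.29, profilin (pfn1) by 3.81 ± 0.73 and 4.02 ± 0.56, and the actin-binding gene cotl1 by 2.33 ± 0.66 and 2.94 ± 0.55. Among the leading genes, tmsb1, another thymosin, and cfl1l, a cofilin, rose by 7.46 ± 1.04 and 8.17 ± 0.80, and by 8.11 ± 1.15 and 8.02 ± 0.89. Unlike krt91, lye or and3, tmsb4x and actb1 were above 0 in every CA library. In series M the call of actb1 was lost without layer 6, 8, 12 or 15 (adjusted p up to 0.354) and that of cotl1 without layer 2, 6, 8 or 12 (adjusted p up to 0.199). With detected genes as a covariate the calls of actb1 and cotl1 were lost in series M (adjusted p of 0.0581 to 0.0588), and those of actb1, pfn1 and cotl1 in series Z (adjusted p of 0.183 to 0.418). The epidermis share of reads was higher in CV in every section but layer 17 of series M, and its part in these differences was not tested.

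Skeletal muscle genes were the main group on the side of the artery. Of 24 muscle genes listed, 12 of 18 tested fell in series M and in series M without layer 17, and 14 of 16 fell in series Z (background 0.932%, 1.17% and 0.793% lower), and 0 rose in any of these fits. The median difference was -4.23, -4.84 and -6.07. Of the 24 listed genes, 2 were at 0 in every CV library of series M, 2 without layer 17 and 4 in series Z. Any of these that were tested passed the filter on low values through CA alone, which fixed their direction. The list took 0.115, 0.251 and 0.435% of reads in CV and 1.24, 2.99 and 28.7% in CA of series M, with the highest share in layer 8 (95% Wilson interval 28.5 to 28.9%, counting error only). In series Z it took 0.0138, 0.0435 and 0.255% in CV and 0.481, 5.18 and 12.2% in CA. The list level was lower in CV in all 12 sections.

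myhz2, the fast myosin heavy chain gene, was at 0, 0.642 and 3.21 FPKM in CV and 51.9, 355 and 1424 FPKM in CA of series M, and at 0, 0.744 and 2.68 FPKM in CV and 80.02, 965 and 2520.3 FPKM in CA of series Z. It fell with a difference of -7.50 ± 1.19 in series M (limma adjusted p = 4.60e-05) and of -8.22 ± 0.84 in series Z (adjusted p = 1.85e-05). The groups did not overlap in either series, and layer 17 was no exception. In the muscle captures of the same series its median was 5143 FPKM (M) and 4424 FPKM (Z), above every CA library. The cardiac-type actin gene actc1b, which fast muscle of the embryo uses, was at 104, 505 and 971 FPKM in CV and 2554, 6821 and 59311 FPKM in CA of series M and fell with a difference of -4.34 ± 0.40 there and of -6.58 ± 0.99 in series Z. The troponin genes tnni2a.4 and tnnc2 fell with a difference of -5.34 ± 0.89 and -7.36 ± 0.86, and of -6.12 ± 1.03 and -5.95 ± 1.18. The calcium pump gene atp2a1 fell with a difference of -5.73 ± 1.23 and -5.85 ± 1.12, and the parvalbumin genes pvalb1 and pvalb2, whose products bind calcium, with -5.34 ± 0.78 and -6.16 ± 1.07, and of -5.43 ± 0.73 and -6.02 ± 0.96. In series M the call of atp2a1 was lost without layer 8 (adjusted p = 0.0743). The light chain gene mylpfa fell with a difference of -4.22 ± 0.59 and -6.44 ± 1.14. The creatine kinase gene ckma fell in series Z with a difference of -6.54 ± 0.87, and its difference of -4.10 ± 1.23 in series M did not pass (adjusted p = 0.0660). nme2b.2, a nucleoside diphosphate kinase gene outside the list, fell with a difference of -6.30 ± 1.24 and -4.82 ± 0.99, and its median in muscle captures was 2683 and 3349 FPKM.

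Some notochord genes were also higher in the artery captures. Of 25 notochord genes listed, 3 of 10 tested fell in series M, 3 of 10 without layer 17 and 3 of 6 in series Z (background 0.932%, 1.17% and 0.793% lower), and 0 rose. The median difference was -3.66, -3.37 and -3.198. Of the 25 listed genes, 10 were at 0 in every CV library of series M, 11 without layer 17 and 6 in series Z. Any of these that were tested passed the filter on low values through CA alone, which fixed their direction. col2a1a, the type II collagen of the notochord sheath and cartilage, was at 0, 0 and 2.23 FPKM in CV and 14.99, 258 and 1181 FPKM in CA of series M, and at 0, 0.161 and 5.32 FPKM in CV and 13.8, 165 and 2711 FPKM in CA of series Z. It fell with a difference of -6.85 ± 1.29 (limma adjusted p = 0.000688) and of -6.52 ± 0.98 (adjusted p = 0.000795), and CV lay below CA in 12 of 12 sections without overlap. hapln1a, for a link protein of the matrix, fell with a difference of -5.56 ± 1.303 and -5.04 ± 0.99. Its median was higher in N captures than in CA, with 163 and 249 FPKM. Its call in series M was lost without layer 6 (adjusted p = 0.0589). col9a2, a further cartilage-type collagen gene, fell in series Z with a difference of -4.65 ± 1.06 and gave -2.94 ± 1.41 in series M (adjusted p = 0.386). lect1, the chondromodulin gene, fell in series M with a difference of -5.42 ± 1.32 with all CV libraries listed at 0. It thus passed the filter on low values through CA alone, and its call was lost without that filter (adjusted p = 0.0652). In series Z lect1 did not reach the minimum level for testing. The call of col9a2 was lost without layer 10 or 19 (adjusted p up to 0.0770) and that of lect1 without layer 6, 8 or 12 (adjusted p up to 0.0622). The early notochord signal gene shha was at 0, 1.81 and 78.4 FPKM in CA of series M and 0, 0.133 and 31.0 FPKM in CA of series Z, was listed at 0 in all 12 CV libraries, and was not tested. The share of reads of the notochord list varied between sections, with 0.0241, 0.0696 and 0.178% in CV and 0.0227, 0.276 and 3.68% in CA of series Z. Its median in N captures was 0.132% (series M) and 0.196% (series Z), so the share need not be notochord RNA alone. The share was higher in CV than in CA in layer 6 (0.116% in CV, 0.0227% in CA) and layer 10 (0.178% in CV, 0.124% in CA) of series Z and in layer 15 of series M (0.124% in CV, 0.113% in CA). In series Z col2a1a, hapln1a and col9a2 lost their calls with detected genes as a covariate (adjusted p of 0.141 to 0.278).

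**Figure D3:**
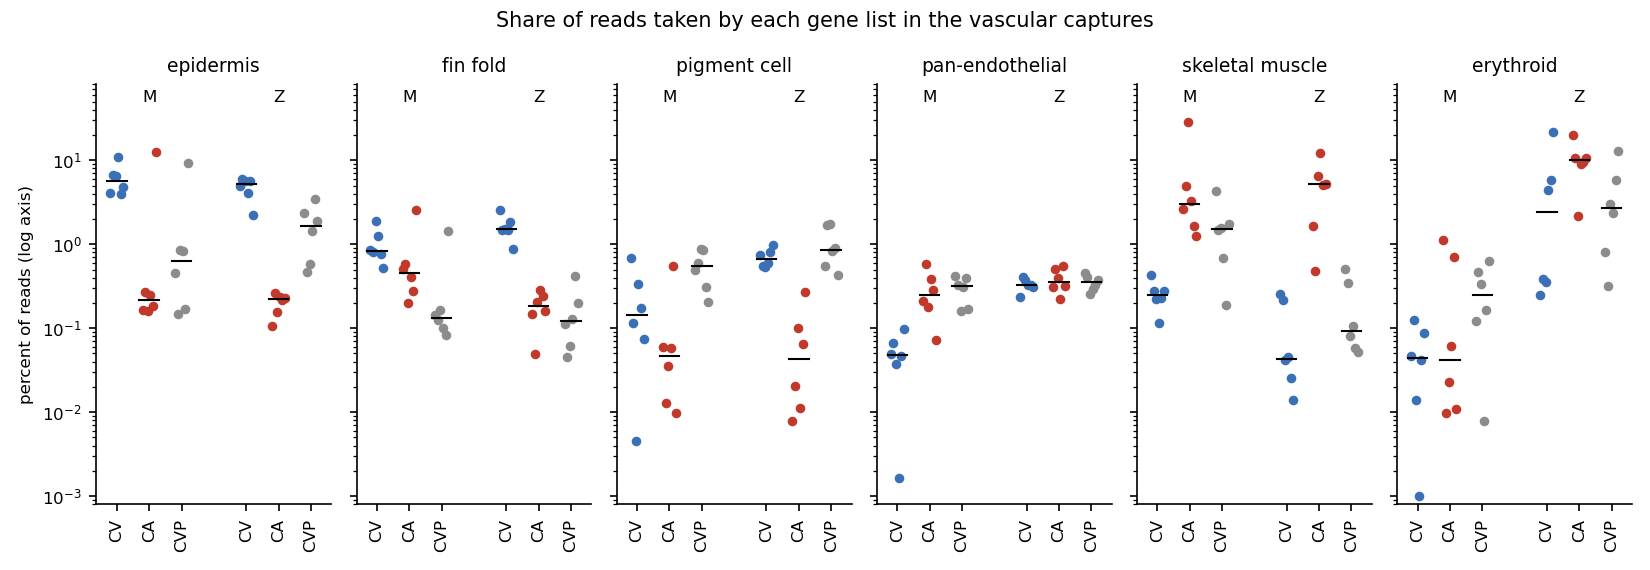
Percent of reads taken by 6 gene lists in each CV, CA and CVP library (log axis, black bar at the median, 6 libraries a group, shares under 0.001% drawn at 0.001%). Epidermis shares lie between 2.21 and 10.98% in CV and at most at 0.269% in CA apart from the 12.4% of layer 17 in series M, and skeletal muscle shares lie higher in CA than in CV in both series.

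The Cxcl12 chemokine genes of the niche were higher in CA captures in both series. cxcl12b was at 0, 0 and 6.76 FPKM in CV and 35.8, 133 and 331 FPKM in CA of series M, and at 0, 0 and 7.01 FPKM in CV and 145, 238 and 555 FPKM in CA of series Z. It fell with a difference of -6.51 ± 1.28 in series M (limma adjusted p = 0.00114) and of -7.14 ± 0.79 in series Z (adjusted p = 4.32e-05), and the groups did not overlap. Its median was 9.88 and 13.9 FPKM in CVP and 0 and 9.65 FPKM in muscle captures. cxcl12a, the paralogous ligand of the same Cxcr4 receptors, was at 0, 0 and 3.16 FPKM in CV and 4.01, 105 and 374 FPKM in CA of series M and fell with a difference of -6.10 ± 1.35 there and of -5.84 ± 0.93 in series Z, again without overlap. Layer 17 of series M had the smallest difference for both, at -2.24 for cxcl12b and -0.27 for cxcl12a. The muscle list was higher in CA in all 12 sections and the notochord share in 9 of them, and their part in these differences was not tested. With detected genes as a covariate the call of cxcl12a in series Z was lost (adjusted p = 0.174).

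ccl25b, a chemokine that the vein niche produces, went the other way in series Z. It was at 439.6, 533 and 981 FPKM in CV and 0, 0 and 721 FPKM in CA and rose by 6.64 ± 1.19 (limma adjusted p = 0.00284), higher in CV in 5 of 6 sections, a call lost with detected genes as a covariate (adjusted p = 0.728). In series M ccl25b was at 0, 33.6 and 632 FPKM in CV and 0, 14.3 and 92.6 FPKM in CA, a difference of 1.46 ± 1.37 (adjusted p = 0.764). The M minus Z difference was -5.18 ± 1.88 (adjusted p = 0.681). klf6a, a transcription factor known from niche endothelium, gave 1.46 ± 0.98 and 2.01 ± 0.90 and passed in neither series. Of 15 niche factor genes, 0 rose and 1 fell of 11 tested in series M (2 fell without layer 17), and 1 rose and 1 fell of 9 in series Z. The background was 0.932% lower in series M, 1.17% lower without layer 17, and 3.38% higher and 0.793% lower in series Z. The median differences of the list were -0.77, -0.64 and 1.73. The list members called were cxcl12a and ccl25b and, without layer 17, the secreted factor gene angptl2a at -5.06 (limma adjusted p = 0.0439).

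Most tested stromal genes were not called. Of 20 genes listed, 0 rose and 1 fell of 18 tested in series M (of 17 without layer 17), and 3 rose and 1 fell of 19 in series Z. The background was 1.5%, 2.02% and 3.38% higher and 0.932%, 1.17% and 0.793% lower (series M, series M without layer 17, series Z). The median difference of the list was 0.15, 0.05 and 0.75. The stromal gene that fell in each fit was foxc1a, a forkhead factor of mesoderm, at 0, 0 and 0 FPKM in CV and 33.7, 70.6 and 237 FPKM in CA of series M. It fell with a difference of -6.34 ± 1.31 in series M (limma adjusted p = 0.00186) and of -4.08 ± 1.05 in series Z (adjusted p = 0.0357). The call in series Z was lost without layer 1, 10, 19, 22 or 25 (adjusted p up to 0.135). In series M foxc1a passed the filter on low values through the CA libraries alone, which fixed its direction. The genes that rose in series Z were prrx1b, a homeobox gene of mesenchyme, fn1b, for fibronectin, and lum, for the matrix protein lumican, by 5.61 ± 0.92, 3.90 ± 0.89 and 3.89 ± 0.95. In series M prrx1b gave 3.56 ± 1.22 (adjusted p = 0.137) and fn1b 3.34 ± 1.35 (adjusted p = 0.260), and lum did not reach the minimum level for testing. In series Z the call of fn1b was lost without layer 6, 19 or 22 (adjusted p up to 0.0770) and that of lum without layer 1, 6, 10 or 19 (adjusted p up to 0.105). With detected genes as a covariate all 4 calls in series Z were lost (adjusted p of 0.224 to 0.817). The mesenchymal receptor gene pdgfra gave -1.76 ± 1.06 and 0.75 ± 0.70, and the type I collagen genes col1a1a and col1a2 gave -0.04 ± 0.56 and 0.66 ± 0.36, and -1.72 ± 0.64 and -1.45 ± 0.43. col1a2 lay lower in CV in 12 of 12 sections, and the adjusted p was 0.190 in series M and 0.0713 in series Z.

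Picked after their values were seen, ebf2, a transcription factor of mesenchyme, ndnf, a secreted glycoprotein gene, and cilp, a cartilage matrix gene, fell in both series, ebf2 with -4.88 ± 1.37 and -4.50 ± 1.09, ndnf with -4.68 ± 1.28 and -4.30 ± 0.90, and cilp with -4.93 ± 1.40 and -3.71 ± 0.96. In series M the calls were lost without layer 2, 6, 8, 12 or 15 (adjusted p up to 0.202) for ebf2, layer 2, 6, 8, 12 or 15 (adjusted p up to 0.138) for ndnf and layer 2, 6, 12 or 15 (adjusted p up to 0.221) for cilp. In series Z they were lost without layer 1, 6, 10 or 22 (adjusted p up to 0.0919) for ebf2 and layer 1, 6, 10, 19 or 22 (adjusted p up to 0.136) for cilp. With detected genes as a covariate the calls of ebf2 and cilp in series M (adjusted p of 0.0612 to 0.0674) and those of ebf2, ndnf and cilp in series Z (adjusted p of 0.478 to 0.909) were lost. ndnf was listed at 0 in all 6 CV libraries of series M, so it passed the filter on low values there through CA alone. ebf2 and ndnf were also high in N captures, with medians of 62.2 and 115 FPKM for ebf2 and 67.8 and 69.01 FPKM for ndnf. Of 8 sclerotome and tendon genes, 0 of 2 tested were called in series Z (background 4.18% in either direction). In series M 0 rose and 1 of 5 tested fell, and 1 of 4 fell without layer 17 (background 0.932% and 1.17% lower). That gene was pax1a, a sclerotome factor, at 0, 0 and 25.9 FPKM in CV and 4.39, 169 and 289 FPKM in CA of series M, where it fell with a difference of -5.62 ± 1.38, a call lost without layer 2, 6, 8 or 12 (adjusted p up to 0.0782). pax1a did not reach the minimum level for testing in series Z, with 0, 0 and 59.4 FPKM in CA and 0 in all CV libraries. Its relative pax9 gave -2.02 ± 1.14 and -0.37 ± 0.70 and passed in neither series. The mesenchymal factor gene twist2, picked after its values were seen, fell in series M with a difference of -6.24 ± 1.25 and gave -1.94 ± 1.09 in series Z (limma adjusted p = 0.390).

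Arterial genes had lower list levels in CV than in CA, with few called. Of 15 listed, 14 were in the tables, 3 of 8 tested fell in series M, 2 of 7 without layer 17 and 1 of 8 in series Z (background 0.932%, 1.17% and 0.793% lower), and 0 rose. The median difference was -2.92, -2.76 and -1.36, and the list level was lower in CV in all 12 sections. That level covers tested members alone, and in series M dlc and cldn5b among them passed the filter on low values through CA alone. The share of reads over all list members was lower in CV in every section but layer 17 of series M (0.0741% in CV, 0.0716% in CA). cxcl12b, described above, was the gene called in both series. dll4, the Notch ligand that marks arterial endothelium, was at 0, 0 and 15.2 FPKM in CV and 0, 23.8 and 47.7 FPKM in CA of series M, and at 0, 0.0786 and 8.67 FPKM in CV and 0, 17.3 and 28.04 FPKM in CA of series Z. Its differences of -3.11 ± 1.27 (limma adjusted p = 0.263) and -2.68 ± 0.92 (adjusted p = 0.128) did not pass, though CV was lower in 5 of 6 sections and higher in 0 of each series. dll4 passed when the spread was shared by all 6 regions, at limma adjusted p = 0.0441 in series M and 0.0349 in series Z. That fit also applied the filter over all regions and adjusted over 18263 genes in series M and 16547 in series Z. The main fit left the other regions out because a spread shared with muscle and neural captures, where vessel genes are mostly near 0, can be too small. In series Z dll4 also passed under quantile scaling, and it missed the threshold under the other alternatives.

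Other arterial genes differed between the series in their values. The Delta ligand gene dlc and the claudin gene cldn5b of endothelial junctions fell in series M with a difference of -4.62 ± 1.27 and -5.05 ± 1.33, with 0 FPKM listed in all 6 CV libraries against 2.96, 31.1 and 84.5 FPKM for dlc and 2.47, 32.7 and 252 FPKM for cldn5b in CA. Both passed the filter on low values through the CA libraries alone, which fixed their direction. Without that filter neither was called (limma adjusted p = 0.189 for dlc and 0.146 for cldn5b). The call of dlc was lost without layer 2, 6, 8, 12, 15 or 17 (adjusted p up to 0.133). That of cldn5b was lost without layer 2, 6, 8, 12 or 15 (adjusted p up to 0.119), so both rested on all 6 sections or nearly so. In series Z dlc was at 0, 5.93 and 54.5 FPKM in CV and 3.08, 8.02 and 69.4 FPKM in CA, and cldn5b at 15.8, 33.5 and 78.0 FPKM in CV and 0, 54.0 and 125 FPKM in CA, with differences of -0.99 ± 0.96 and 1.02 ± 1.12. efnb2a was not called in either series, at 0.43 ± 1.23 and -1.21 ± 0.85. The M minus Z difference was -3.63 ± 1.44 for dlc (adjusted p = 0.681) and -6.07 ± 1.69 for cldn5b (adjusted p = 0.530), and neither passed. The pan-endothelial share of reads was low in CV of series M, and its part in these differences was not tested.

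Genes of the whole endothelium gave a negative median in series M. Of 20 listed, 0 rose and 1 fell of 11 tested in series M, and 0 rose and 2 fell of 13 without layer 17 (background 0.932% and 1.17% lower). In series Z 0 of 17 were called (background 4.18% in either direction). The median differences were -2.44, -3.12 and -0.40 (series M, series M without layer 17, series Z). At an unadjusted limma p under 0.05 there were 0 above and 5 below 0 in series M and 1 above and 1 below 0 in series Z. Over all genes tested there were 435 above and 328 below 0 of 6331 in series M, and 1099 and 266 of 8071 in series Z. The gene that fell in series M with all 6 sections was vsg1, for the diaphragm protein of fenestrated endothelium. It was at 0, 3.66 and 41.2 FPKM in CV and 19.4, 170.4 and 371 FPKM in CA of series M and fell with a difference of -4.65 ± 1.26 (limma adjusted p = 0.0310). In series Z vsg1 was at 300.1, 472 and 569 FPKM in CV and 21.5, 358 and 576 FPKM in CA, a difference of 1.11 ± 0.58. The call in series M was lost without layer 2, 6, 8 or 12 (adjusted p up to 0.180). The second gene that fell without layer 17 was the transcription factor gene sox7, at -4.94 (adjusted p = 0.0456). kdrl gave -3.79 ± 1.39 in series M (adjusted p = 0.178) and 0.34 ± 0.66 in series Z, and cdh5, the cadherin of endothelial junctions, gave -3.56 ± 1.18 (adjusted p = 0.120) and 0.27 ± 0.77. In series M every CV library lay below every CA library for cdh5, at 0, 12.2 and 28.1 FPKM in CV and 51.2, 84.4 and 207 FPKM in CA. The transcription factor gene fli1a gave -2.43 ± 1.37 and -0.46 ± 0.78.

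Few venous genes could be tested, and 0 were called. Of 11 listed, 0 of 6 tested were called in series M with or without layer 17, and 0 of 8 in series Z. The background was 2.43%, 3.19% and 4.18% in either direction (series M, series M without layer 17, series Z). For so few genes 0 calls lie near these shares and are no result about venous genes. The median difference was -0.13, -0.89 and 1.71, against 0.50 over all genes of series Z. At an unadjusted limma p under 0.05 there were 0 above and 0 below 0 in series M and 4 above and 0 below 0 in series Z. Over all genes tested there were 435 above and 328 below 0 of 6331 in series M, and 1099 and 266 of 8071 in series Z. stab2, a scavenger receptor, was at 58.3, 105 and 181 FPKM in CV and 0, 27.1 and 84.4 FPKM in CA of series Z, higher in CV in 5 of 6 sections, and its difference of 2.54 ± 0.89 did not pass (limma adjusted p = 0.138). mrc1a, the mannose receptor, was at 167, 306 and 357 FPKM in CV and 9.15, 79.5 and 453 FPKM in CA of series Z, with 1.86 ± 0.72 (adjusted p = 0.187). In series M the CV medians were 4.02 FPKM for stab2 and 7.62 FPKM for mrc1a, whereas the CVP medians were 305 and 458 FPKM. The CV captures of series M thus carried far less venous RNA than the plexus next to them, and those of series Z came closer to it, with CVP medians of 163 and 451 FPKM. flt4, the receptor of venous and lymphatic endothelium, gave -0.60 ± 1.23 and -0.61 ± 1.05. Mural cell genes were called in 0 of 1 and 0 of 3 tested (background 2.43% and 4.18% in either direction), with median differences of -1.52 and -2.63.

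The tested red blood cell genes had differences below 0 in both series, and most were not called. Of 22 erythroid genes, 0 rose and 2 fell of 20 tested in series Z (background 0.793% lower). In series M 0 of 7 were called (background 2.43% in either direction), and 1 of 7 fell without layer 17 (background 1.17% lower). The median differences were -2.08, -1.55 and -2.48 (series Z, series M, series M without layer 17). hbae1.3, an embryonic alpha globin, was at 427, 3529.7 and 21584 FPKM in CV and 3552, 15569 and 34839 FPKM in CA of series Z and fell with a difference of -2.61 ± 0.64 (limma adjusted p = 0.0273). alas2, which starts heme synthesis in red cells, was at 14.7, 339.9 and 2527 FPKM in CV and 601, 1802 and 2533 FPKM in CA and fell with a difference of -2.86 ± 0.73 (adjusted p = 0.0350). Both were lower in CV in 5 of 6 sections, and the groups overlapped. The calls were lost without layer 1, 6 or 10 (adjusted p up to 0.160) for hbae1.3 and layer 1, 6, 10 or 19 (adjusted p up to 0.179) for alas2, and both with detected genes as a covariate (adjusted p = 0.999 for each). At an unadjusted p under 0.05, 15 of the 20 tested erythroid genes were lower in CV and 0 higher in series Z. Over all 8071 genes tested there, 266 were lower and 1099 higher. hbae3, another alpha globin, gave -2.59 ± 0.71 in series Z (adjusted p = 0.0501) and -3.17 ± 1.34 in series M, where it fell without layer 17 (adjusted p = 0.0374). The erythroid share of reads in series Z was 0.252, 2.40 and 21.6% in CV and 2.15, 10.05 and 19.98% in CA. Layer 25 was the exception, with 21.6% in CV (95% Wilson interval 21.5 to 21.7%) and 10.7% in CA (10.6 to 10.7%). In series M the share was 0, 0.0441 and 0.126% in CV and 0.00981, 0.0416 and 1.13% in CA, and it was higher in CV in layers 6 and 17.

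Of the white blood cell, progenitor and thrombocyte genes 0 were called by limma in either series. In series M 1 neutrophil, 1 macrophage, 2 blood progenitor and 2 thrombocyte genes could be tested, and in series Z 9, 4, 9 and 4. The background was 2.43% in series M and 4.18% in series Z in either direction. For so few genes 0 calls lie near these shares and are no result about these cells. The median differences in series Z were -0.51 for neutrophil, 1.22 for macrophage, -0.65 for progenitor and -1.18 for thrombocyte genes, and in series M 0.75, -1.84, -1.03 and -1.81. The neutrophil lysozyme gene lyz was at 0, 264 and 948 FPKM in CV and 0, 983 and 10009 FPKM in CA of series Z, a difference of -0.51 ± 1.04. mpx, the neutrophil peroxidase gene, gave -2.18 ± 1.01 (limma adjusted p = 0.287). The groups overlapped for both. At an unadjusted p under 0.05 there were in series Z 1 above and 1 below 0 for neutrophil, 1 above and 0 below 0 for macrophage, 0 above and 0 below 0 for progenitor and 0 above and 1 below 0 for thrombocyte genes, and in series M 0 in each list. Over all genes tested there were 1099 above and 266 below 0 of 8071 in series Z, and 435 and 328 of 6331 in series M.

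The remaining lists held few called genes. With a background of 2.43% in series M and 4.18% in series Z in either direction, 0 calls in lists of this size lie near the share over all genes. Neural genes were called in 0 of 2 tested in each series, with medians of -1.45 and -1.24. Of the pronephric duct genes 0 of 2 were called in series M and in series Z, with medians of 3.06 and 1.43. Without layer 17 gata3, which marks the duct, rose by 5.14 ± 1.49 (limma adjusted p = 0.0412), as 1 of 2 tested (background 2.02% higher). With all 6 sections gata3 gave 4.37 ± 1.36 in series M and 3.08 ± 1.01 in series Z. Notch pathway genes were called in 0 of 10 and 0 of 12, with medians of -0.29 and 1.09, and cell cycle genes in 0 of 15 and 0 of 20, with medians of -0.32 and -1.06. At an unadjusted p under 0.05 the Notch list had 1 above and 0 below 0 in series M and 2 above and 1 below 0 in series Z, and the cell cycle list 1 above and 0 below 0 and 0 above and 3 below 0. Over all genes tested there were 435 above and 328 below 0 of 6331 in series M, and 1099 and 266 of 8071 in series Z. top2a, an enzyme of dividing cells, was at 0.715, 8.58 and 18.7 FPKM in CV and 13.7, 44.9 and 61.7 FPKM in CA of series Z, lower in CV in 6 of 6 sections, and its difference of -2.52 ± 0.87 did not pass (adjusted p = 0.129).

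**Figure D4:**
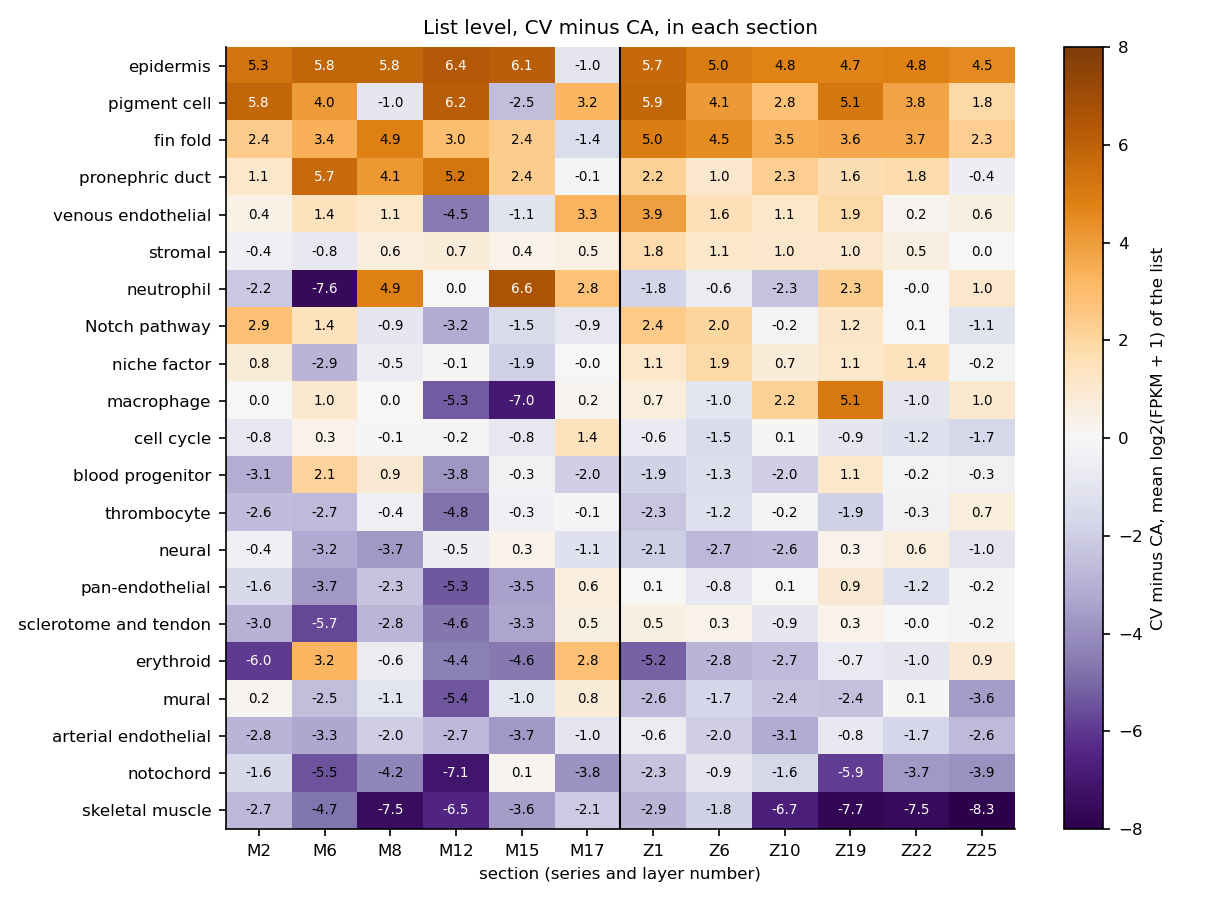
CV minus CA of the mean log2(FPKM + 1) of each list's tested members, for the 21 lists (rows) in the 6 sections of series M and the 6 of series Z (columns, series and layer number), with orange for higher in CV and purple for higher in CA. Epidermis lies at 5.265 to 6.365 in the 5 other sections of series M against -0.99 in layer 17. It averages 4.94 ± 0.42 in series Z (SD), and skeletal muscle is negative in all 12 sections. Neutrophil, macrophage and mural values of series M rest on 1 gene each.

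The genes that differed in both series could be traced in the other captures. The 74 that rose had a median level of 7.69 in CV, 4.36 in CVP, 2.60 in muscle, 0.88 in N and 1.66 in CA of series M, and of 6.91, 4.21, 2.83, 0.60 and 0.48 in series Z (medians over genes of the mean log2(FPKM + 1)). They included 14 epidermis and 4 fin fold list members and 0 endothelial ones, so 18 of the 74 belonged to any list, and 39 of the 74 in series M and 59 in series Z were also higher in muscle than in CA. The 29 that fell had a median of 3.05 in CV, 5.93 in CVP, 3.89 in N, 11.60 in muscle and 8.44 in CA of series M, and of 2.46, 4.41, 5.15, 10.98 and 8.06 in series Z. Among them were 12 muscle list members and 17 members of any list, and 19 of the 29 were higher in muscle than in CA in each series. The genes that fell but were not higher in muscle included cxcl12b, cxcl12a, col2a1a, hapln1a, foxc1a, ebf2 and ndnf.

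Series M was also compared without layer 17. Of the genes that rose in series M, 83 of 95 also rose without that section, and 55 of 59 that fell also fell. Without it 83 genes rose and 30 fell in both series. Genes whose CV libraries all lay above all CA libraries numbered 27 of 6331 in series M (0.426%), 158 of 5890 without layer 17 (2.68%) and 241 of 8071 in series Z (2.99%), and those all below numbered 50 (0.79%), 120 (2.04%) and 42 (0.52%). Without layer 17 these counts set 5 libraries against 5, where non-overlap is easier to reach than with 6 against 6. The section was also left out for its skin, so less overlap of skin genes follows from that choice.

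The difference of the section differences between series M and Z was tested in a joint limma fit of all 24 libraries, and 0 of 5174 genes passed (0.0%), with 58 above and 278 below 0 at an unadjusted p under 0.05. Without the section block 1 gene passed, and with another pseudocount or quantile scaling 0 did. Without layer 17 of series M, 4 genes passed, all with a lower CV minus CA difference in series M. They were crip1 at -7.12 ± 1.39 (adjusted p = 0.0493), zfp36l2 at -6.91 ± 1.36 (adjusted p = 0.0493), vsg1 at -6.90 ± 1.21 (adjusted p = 0.0354) and a gene with a clone name. The pan-endothelial share of reads was low in CV of series M, and its part in these differences was not tested.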

How the data were processed

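Gene FPKM values were deposited by the authors as 1 table per series, with 25067 protein-coding genes each. Per the submitters' processing notes, FastQC, HISAT, HTSeq and DESeq2 were used with GRCz10, without versions, and other upstream settings are not given in the sources used here. Whole read numbers were recovered from the FPKM steps for 100% of genes above 0 (tolerance 0.001) and gave depths, read shares and their 95% Wilson intervals, which cover counting error only.

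Values were tested as log2(FPKM + 1) with limma 3.58.1 in R 4.3.3, trend on, with section as a block, on the CV and CA libraries of 1 series. Genes had to be at 1 FPKM or more in at least 6 of 12 libraries, or in at least 5 libraries in series M without layer 17. The series design text says that all captures come from each section, which gives the pairs. The residuals of the CV and CA captures of a section correlated at -0.05 to 0.02 in series M and -0.02 to 0.06 in series Z. Series were fitted separately, since their tables were made separately, and compared by an interaction term. 1 left muscle column of series Z that equals the rounded mean of 2 others was left out of the fits with all 6 regions.

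Members and the 21 gene lists (357 entries, of which 344 matched by name, 5 by another name and 8 are not analysed here) were chosen with earlier results of these data known. Named genes are the 10 with the largest mean difference in each direction among genes called in both series (clone names left out), the given markers, the first 3 members of each list and up to 6 further called members. Alternatives were another pseudocount (0.1), no filter, quantile scaling, no block, a spread shared with other regions, detected genes as covariate, voom, array weights and leaving out each section. Scripts were tested on simulated data. Python 3.11.15, pandas 2.3.3, numpy 2.4.6, scipy 1.17.1 and matplotlib 3.10.9 were used.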

Additional observations from a re-analysis of the deposited data

Results flagged for a closer look

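In 28 of 215 values tested (gene and list differences of CV minus CA per section, 6 sections each), 1 section lay far from the other 5. Chance flags about 1 in 20 such groups. Differences are on the log2(FPKM + 1) scale.

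Layer 17 of series M, already set apart for the skin in its CA capture, accounted for most of them. Its CA capture held skin RNA, and the epidermis list level differed by -0.993 there, against 5.265 to 6.365 in the other sections. For skin genes the difference in layer 17 was -1.078 for krt4, -2.826 for icn2, -0.0319 for cyt1, 0.472 for aep1, -0.861 for lye, -1.134 for cfl1l and -1.688 for epcam. For fin fold genes it was -4.278 for and1, 0.0345 for and2, -6.669 for and3 and -0.102 for msx2b, and for hpdb 2.538, all below the other sections. It lay above the other sections for cxcl12a at -0.269, cxcl12b at -2.244 and pax1a at 2.321.

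Elsewhere in series M, layer 8 was high for klf6a at 7.011 (others at most 1.543) and layer 6 low for ndnf at -7.895. In series Z, layer 25 was low for msx2b at 3.603, msx1b at 0.272, dct at 2.015 and cldn1 at 6.336. Layer 6 was high for klf6a at 6.965, cdh5 at 3.598 and hapln1a at -1.106, and low for krt18 at -3.958 and fli1a at -4.651. Layer 10 was low for prrx1b at 1.866.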

How the results depend on the processing

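Counts of called genes depended on the filter and on the spread. Without the filter on low values they were 40 in series M, 99 without layer 17, 153 in series Z and 23 in both series. With the spread shared by all 6 regions they were 488, 685, 712 and 191, and with the spread of CA, CV and CVP 300 in series M without layer 17. The fit with all 6 regions also applied the filter over the libraries of all regions. It tested 18263, 17040 and 16547 genes (series M, series M without layer 17, series Z), against 6331, 5890 and 8071 in the main fit. The part of the spread and of the added genes in these counts was not tested. The spread shared by all 6 regions can be too small for vessel genes, which are mostly near 0 in muscle and neural captures. Detected genes as a covariate gave 51 in series Z and 44 in both. Leaving out 1 section gave 86 to 188 in series M, 96 to 147 without layer 17, 206 to 315 in series Z, 68 to 113 in both and 0 to 4 for M minus Z. Without the replicate block the counts were 174, 212, 382 and 109, and 1 for M minus Z. For the shared count, the fits with other spreads, the covariate, voom, weights and sections left out other than layer 17 were chosen after seeing the data. Without the filter on low values the calls lost were, in series M, cldni, krt18, and1, and3, slc45a2, hapln1a, lect1, cxcl12a, ebf2, ndnf, cilp, pax1a, cldn5b, dlc, vsg1, hgd, fah, qdpra, tmsb4x, actb1, pfn1, atp2a1, cotl1, cldn1, cldnb, epcam and msx3, and in series Z tp63, mitfa, oca2, mylpfa, pvalb2, col9a2, ccl25b, foxc1a, ebf2, cilp, lum, hbae1.3, alas2, tnnc2, atp2a1, pvalb1, nme2b.2 and pcbd1.

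None of the 115 called values of named genes (52 in series M, 63 in series Z) changed sign, but uncalled values did. Under quantile scaling col1a1a in series M came to 0.0187, cdh5 in series Z to -0.110 and stab2 in series M to 0.0995. With detected genes as a covariate pdgfra, cldn5b and vsg1 in series Z came to -0.0182, -1.83 and -0.122, and stab2 in series M to 0.258. With voom fras1 and stab2 in series M came to -0.229 and 0.317, and cldn5b and kdrl in series Z to -0.0407 and -0.0914. With array weights cldn5b, cdh5 and lyz in series Z came to -0.116, -0.0654 and 0.636, and stab2 in series M to 0.247. fras1 in series Z came to 0.0234 with the pseudocount of 0.1. With 1 section left out, values in series Z ranged from -0.869 to 0.411 for fras1, -0.563 to 0.0226 for pax9, -0.393 to 0.493 for cdh5, -0.807 to 0.375 for fli1a, -1.24 to 0.308 for flt4 and -1.96 to 0.421 for lyz. In series M they ranged from -0.639 to 0.627 for col1a1a, -0.118 to 0.779 for efnb2a, -1.33 to 1.197 for stab2, -1.70 to 0.796 for mrc1a, -1.16 to 0.545 for flt4 and -2.02 to 0.390 for alas2. The cause of these changes was not tested. The depth of series M, 75007 to 487552 reads, limits what can be said of genes near 0.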
